A study of Mus musculus with 20 samples.

Results

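Mouse Ewing sarcoma (ES) tumors were set against embryonic mesenchymal cells (eMC) that carried an empty retrovirus, by the arrays so labelled: 6 ES tumors (ES 41, 46, 47, 48, 49 and 51) and 4 eMC samples (eMC empty 4 to 7), together 10 of the 20 arrays in the series. The tumors had been grown under the skin of Balb/c nude mice and left untreated. The eMC, primary murine embryonic cells in Iscove's medium with 15% serum, had been transduced with a pMYs-IRES-GFP vector without insert and were taken 48 hours later. Among the other arrays, 6 carry CIC-DUX4 sarcomas (CDS), raised from eMC with the CIC-DUX4 fusion in the same kind of host, and these enter below only to show where ES tumors differ from them.

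Several features of the groups bear on every value. ES tumors are whole tissue, with the host cells that a nude mouse still has (nude mice lack a thymus). The eMC are a culture on plastic, taken 48 hours after transduction with a retrovirus. Tumor against cell type, tissue against culture, host cells against none and recent transduction against tumor growth cannot be told apart. The labels name neither the fusion nor the cell of origin of the ES tumors, nor whether samples came from separate cultures or animals, and the p-values therefore reflect no more than how much these samples vary. In bulk RNA, fewer cells of a type and less RNA per cell cannot be told apart either.

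Ewing sarcoma is a tumor of bone and soft tissue driven by a fusion of EWSR1 with an ETS transcription factor, most often FLI1. The fusion binds repeats of the letters GGAA and switches on genes such as NKX2-2 and NR0B1, and it represses much of the program of mesenchymal cells, the presumed cells of origin. Mesenchymal cells make fibrillar collagens, respond to TGF-beta and BMP signals, and can turn into fat, cartilage and bone.

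Values are log2 signals after quantile normalization, which gives every array the same distribution, unless called "deposited". A gene was called when the Benjamini-Hochberg adjusted p of limma was under 0.05 and the log2 change, ES minus eMC, at least 1 in size. Of 11564 genes tested, 4436 were called (38.4%), 2118 higher (18.3%) and 2318 lower (20%) in ES tumors. The counts of each gene list below are to be read beside these shares. On the deposited scale 3734 were higher (32.3%) and 1324 lower (11.4%), so 47.7% of the calls were higher after normalization against 73.8% as deposited. On both scales in the same direction, 1812 were higher (15.7%) and 1005 lower (8.69%). The deposited distributions differed: the 75th percentile was 8.22 ± 0.40 (SD, n = 6) in ES and 5.07 ± 1.29 (SD, n = 4) in eMC (exact permutation test, two-sided, p = 0.00952, the smallest this design can give, adjusted over 7 measures 0.0167). The median change of all genes was -0.04 after normalization and 0.83 as deposited, and both values are given for gene lists. The RNA quality measure of Actb, the 3' minus the 5' control signal, was 0.25 ± 0.05 in ES and 0.17 ± 0.03 in eMC (SD, n = 6 and 4, exact permutation p = 0.0286, adjusted 0.0333). That of Gapdh was -0.21 ± 0.08 and -0.36 ± 0.04 without overlap (SD, n = 6 and 4, exact permutation p = 0.00952, adjusted 0.0167), and the part of either in the results was not tested. Samples of eMC resembled each other more than tumors did: the correlation across genes of pairs of arrays was 0.990 to 0.994 within eMC, 0.861 to 0.942 within ES and 0.761 to 0.813 between them (genes are not independent replicates).

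**Figure D1:**
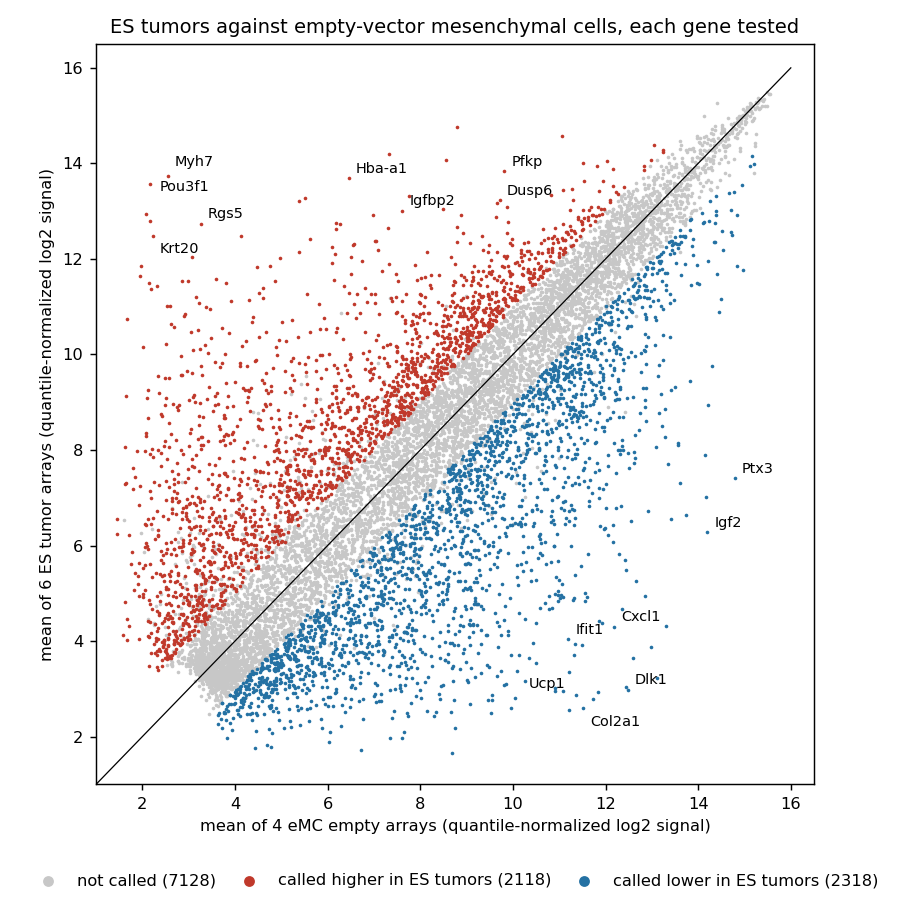
Each point is 1 of 11564 genes, with its mean on 4 eMC empty arrays (x axis) and on 6 ES tumor arrays (y axis), both in quantile-normalized log2 signal; the line marks equal levels. Red points are the 2118 genes called higher in ES tumors and blue points the 2318 called lower; Pou3f1 (2.17 in eMC, 13.58 in ES) and Dlk1 (12.48 in eMC, 2.98 in ES) lie near opposite corners.

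The genes that stood highest in ES tumors over eMC included transcription factors and membrane proteins of nerve cells. Pou3f1, a POU-domain factor of neural and Schwann cells, was at 12.86, 13.70, 13.66, 13.72, 13.81 and 13.72 in ES 41 to ES 51 in the order given above and at 2.10, 2.24, 2.25 and 2.11 in eMC. Every tumor was high, and the change was 11.40 ± 0.23 (SE, adjusted p = 2.61e-10), at least 91.7-fold on the deposited signals. Such bounds are all on the deposited signals and can exceed the fold of the normalized values; they set the brighter group against each dim array's own dip, the low point between the dim and the bright signals of that array, since every array of the dimmer group lay below it. Neurog2, a proneural basic helix-loop-helix factor, was at 12.25 (lowest), 12.76 (median) and 13.23 (highest) in ES and 2.02 to 2.30 in eMC, at least 56.3-fold higher (adjusted p = 5.35e-10). Foxd4, a forkhead factor, reached 11.45, 13.18 and 13.77 (lowest, median, highest) against 1.95 to 2.36, at least 61.3-fold higher. The 12 highest genes were picked only from called genes without overlap between tumors and eMC, so the gap in these 3 was set by the choice. Of all genes tested, 42.5% did not overlap. Another 4 genes known from neurons, all with eMC at the dim end, were also among the 12 highest: Zfp804a, a zinc-finger gene (change 9.68 ± 0.66), Vsnl1, a calcium sensor (9.36 ± 0.69), Gria2, a subunit of AMPA glutamate receptors (9.12 ± 0.59), and Fut9, a fucosyltransferase that builds Lewis x sugars (9.20 ± 0.67).

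The other genes among the 12 highest belong to muscle, epithelium and vessels. Myh7, the slow and cardiac myosin heavy chain, was at 14.18, 12.86, 14.06, 13.64, 13.62 and 13.98 in ES 41 to ES 51 and 2.24 to 2.80 in eMC, at least 103-fold higher (change 11.18 ± 0.27, adjusted p = 5.35e-10). Myh4, the fast myosin of skeletal muscle, was at 11.34, 15.00, 12.75, 15.37, 14.45 and 2.21 on the same arrays and 1.72 to 2.17 in eMC. ES 51 thus lay near eMC for Myh4 and among the other tumors for Myh7. Krt20, an intermediate filament protein of gut epithelium and Merkel cells, was at 10.18, 12.74 and 13.41 (lowest, median, highest) against 1.73 to 2.56, at least 48.1-fold higher. Tmprss11a, an airway-type membrane protease, differed by 9.09 ± 0.85 and Rgs5, a G-protein regulator of pericytes, by 9.48 ± 0.41.

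**Figure D2:**
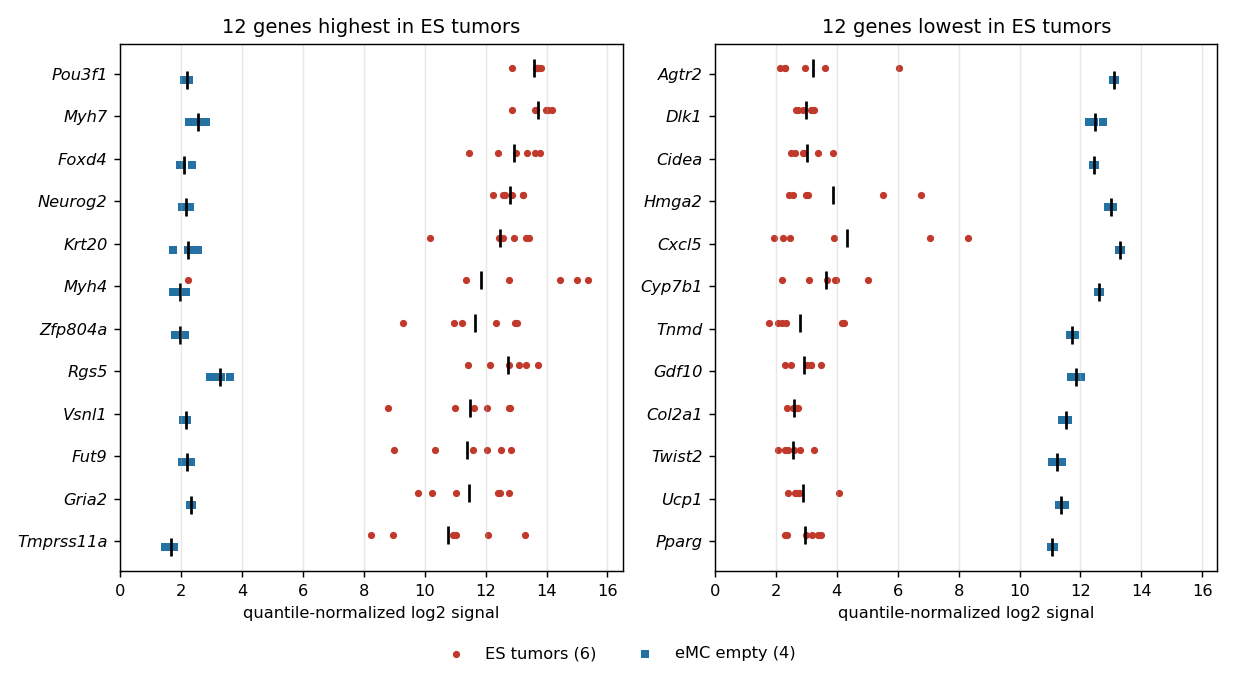
Normalized log2 signal of the 12 genes highest (left) and 12 lowest (right) in ES tumors among called genes without overlap between the groups; circles are the 6 ES arrays, squares the 4 eMC empty arrays, and black ticks the group means. Myh4 is low in 1 tumor (2.21), and Hmga2, Cxcl5 and Agtr2 each have tumors above the rest (highest 6.75, 8.32 and 6.05).

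ES tumors were also compared directly with the 6 CDS tumors. Over all genes 3896 were called between the tumor types (33.7%), 2032 higher (17.6%) and 1864 lower (16.1%) in ES. The 12 genes highest over eMC were chosen on the same ES arrays, so their levels in CDS tumors are given as a description, without a test. CDS tumors held Myh7 at 2.90 ± 0.96 (SD, n = 6), Foxd4 at 2.04 ± 0.13 and Krt20 at 2.33 ± 0.26, levels near those of eMC, and Pou3f1 at 5.86 ± 2.02. Rgs5 was at 14.58 ± 0.13 in CDS tumors, above the ES mean by 1.84 log2 units, and Myh4 at 9.61 ± 5.76.

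The genes lowest in ES tumors included regulators of growth and of fat, cartilage and tendon. Dlk1, a Notch-family membrane protein of preadipocytes, was at 12.74, 12.44, 12.29 and 12.46 in eMC and at 2.67 (lowest), 3.01 (median) and 3.24 (highest) in ES, at least 225-fold lower (change -9.50 ± 0.26, adjusted p = 1.41e-09). Col2a1, the main collagen of cartilage, was at 11.41 to 11.58 in eMC and 2.35, 2.63 and 2.73 (lowest, median, highest) in ES, at least 94.4-fold lower. No tumor came near the eMC for either gene. Cyp7b1, an oxysterol hydroxylase, was at least 246-fold lower and Cidea, a lipid droplet protein of brown fat, at least 217-fold lower. Tnmd, the tendon protein tenomodulin, was at least 114-fold lower and Gdf10, a BMP-related ligand, at least 129-fold lower. In 3 of the lowest genes some tumors kept a signal above the dip, so no bound is given: Agtr2, an angiotensin II receptor (change -9.88 ± 0.69, with ES 41 at 6.05), Hmga2, a chromatin protein of embryonic and tumor cells (-9.11 ± 0.81, with ES 41 at 6.75 and ES 46 at 5.51), and the chemokine Cxcl5 (-8.98 ± 1.20, with ES 46 at 7.07 and ES 49 at 8.32).

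The 12 lowest genes were chosen on the ES arrays too and are likewise described without a test. CDS tumors held Hmga2 at 13.54 ± 0.17, Dlk1 at 12.73 ± 0.52 and Col2a1 at 13.06 ± 0.33 (SD, n = 6), at or above the eMC level, and the ES tumors lay 9.66, 9.75 and 10.46 log2 units below them in that order. Cidea, Twist2, Ucp1 and Pparg were at 2.44 to 3.50 on average in CDS tumors and at 2.56 to 3.03 in ES tumors.

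Genes of the Ewing fusion and its known targets did not move in 1 direction. Fli1, the ETS factor fused in most Ewing sarcomas, was at 7.43, 8.72 and 9.74 (lowest, median, highest) in ES and 5.47 to 6.38 in eMC, a change of 2.63 ± 0.46 (SE, adjusted p = 0.00065) and at least 5.86-fold on deposited signals. CDS tumors, which the labels tie to another fusion, held Fli1 at 12.96 ± 0.37 (SD, n = 6), above the ES tumors by 4.36 log2 units (adjusted p = 5.7e-07). These arrays do not tell a fusion transcript from the normal gene, and Fli1 is also made by endothelial and blood cells, whose markers are described below. Erg, another fusion partner, was called at 1.47 ± 0.45 but not on the deposited scale (1.03, adjusted p = 0.23). The call was also lost without eMC empty 4 (1.38, adjusted p = 0.054). Erg was below the dip on 5 of the 6 ES arrays and on all 4 eMC arrays. Ewsr1, the usual fusion partner, was at 13.20 to 13.57 in ES and 12.34 to 12.57 in eMC, a difference of 0.83 ± 0.09 that is under the fold threshold.

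Both markers named above as switched on by the fusion were dim on these arrays. Nkx2-2, a homeobox gene used in diagnosis, was at 5.74 in ES 41 and at 1.63 to 2.29 in the other 5 tumors, against 1.86 to 2.23 in eMC, too dim to be tested. Nr0b1, a nuclear receptor, was at 1.64 to 2.02 in ES and 1.79 to 2.01 in eMC. Prkcb, a protein kinase C, was at 2.24 in ES 41 and 7.19 to 9.49 in the other tumors, against 4.25 to 4.71 in eMC. Its difference of 2.75 ± 1.17 did not pass (adjusted p = 0.070) and did so without ES 41 (3.77, adjusted p = 0.00016) and on deposited values (4.64). Of 19 tested genes on a list of genes that EWS-FLI1 induces, mostly in human cells, 4 were called higher and 6 lower. Over all genes 18.3% were called higher and 20% lower, so the higher count is near the share of all genes. Kit, a receptor tyrosine kinase, was at 6.62 to 10.96 in ES and 3.78 to 4.56 in eMC (4.98 ± 0.77), and the higher calls also took in the T-cell factor Bcl11b (3.51), the Hedgehog effector Gli1 (1.90, not called as deposited) and the histone methyltransferase Ezh2 (1.37). The lower calls included Cck, a neuropeptide (-6.55), Steap1, a metalloreductase (-4.71), Il1rap, a cytokine receptor subunit (-4.72), and Cd99, a membrane protein used in diagnosis (-2.24). The median of the list was -0.46 and turned to 0.31 as deposited. Of 10 tested genes on a list repressed by the fusion, 5 were called lower and 0 higher as normalized; 3 of the 5 were lower on both scales, the cytokine Il6 (-6.25), the matrix protein Ccn1 (-3.80) and the lysyl oxidase Lox (-3.32), with Il6 at 9.27 in ES 46 and 1.96 to 3.40 in the other tumors.

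The other ETS factors and their relatives bear on the contrast with CDS, since ETV1, ETV4 and ETV5 are known targets of CIC. Etv1 was at 6.92, 8.00 and 10.69 (lowest, median, highest) in ES and 5.05 to 5.88 in eMC, a change of 2.98 ± 0.63. Etv5 was at 7.97, 10.27 and 11.98 against 7.36 to 7.58, a change of 2.67 ± 0.59. Both lay below CDS tumors, by 6.17 and 4.46 log2 units. Etv4 was too dim to be tested, at 3.17 to 5.32 in ES and 1.92 to 2.43 in eMC, and at 12.42 to 13.61 in CDS tumors. Etv6, a repressor of the family, rose by 1.38. Of 12 tested ETS factors 5 were called higher and 3 lower, and as deposited 4 and 0; the lower count fell to 1 without ES 51 or without eMC empty 7. Cic, the repressor itself, differed by -0.97 ± 0.40 (adjusted p = 0.066), passed without ES 41 (-1.22, adjusted p = 0.0076) and turned to 1.91 as deposited.

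**Figure D3:**
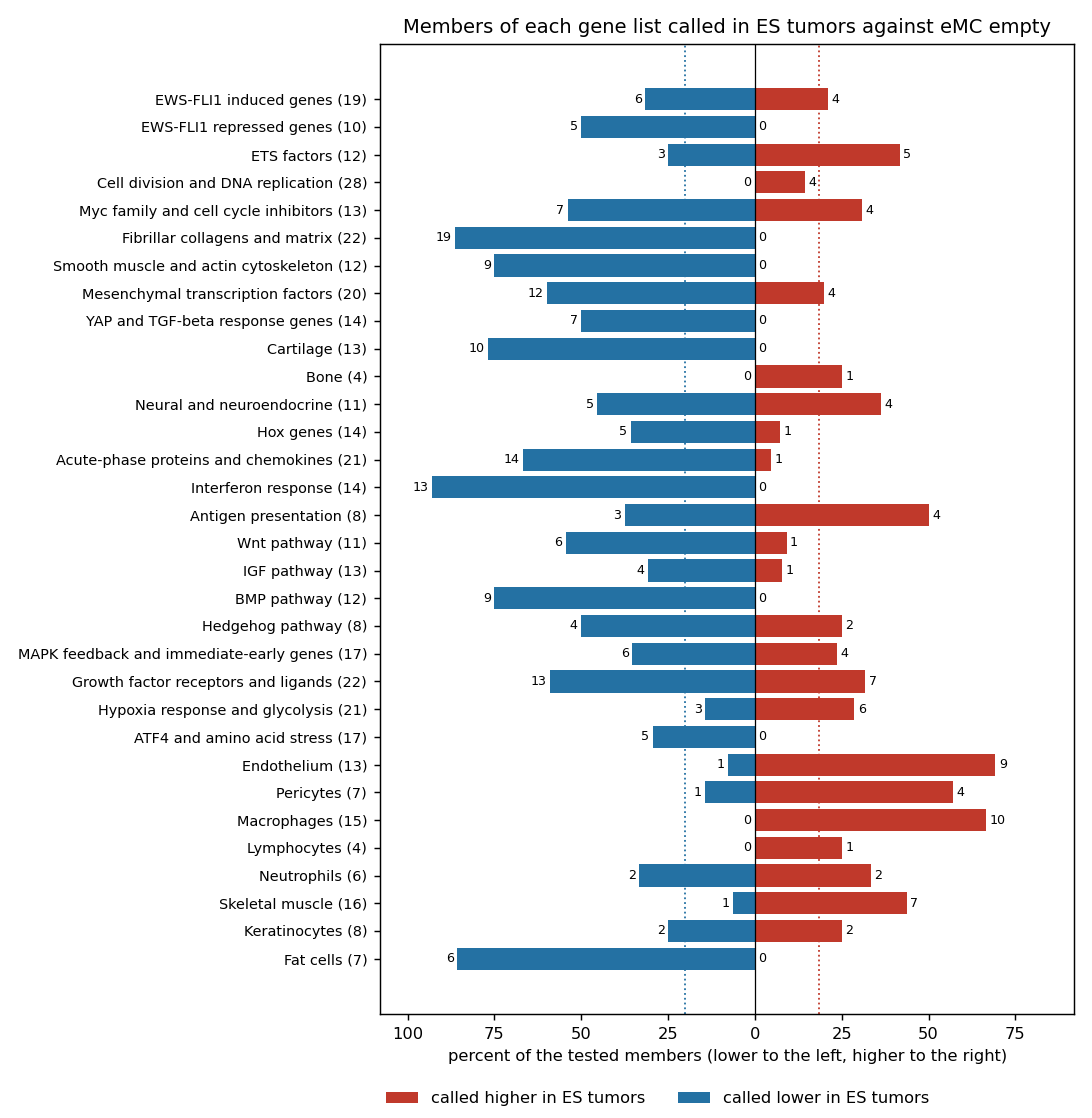
Percent of the tested members of each gene list called higher (red, to the right) or lower (blue, to the left) in ES tumors against eMC empty, after quantile normalization; numbers at the bars count the genes called, numbers in brackets those tested. Dotted lines mark the percent of all 11564 genes called in each direction (18.3 higher, 20 lower); fibrillar collagens, fat cells and interferon response lie mostly to the left, and endothelium and macrophages mostly to the right.

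Matrix genes of mesenchymal cells were lower in ES tumors. Of 22 tested fibrillar collagens and matrix genes, 19 were called lower, 18 of them on both scales, and 0 higher, with a median change of -1.93 (-2.42 as deposited). Col1a1, the main collagen of bone and skin, was at 6.34, 10.88, 6.95, 7.76, 8.26 and 7.39 in ES 41 to ES 51 and at 12.27 to 12.77 in eMC, a change of -4.55 ± 0.71 (adjusted p = 0.00031). ES 46 was the highest tumor and still below every eMC array. Loxl1, a collagen crosslinking enzyme, differed by -4.27 ± 0.73, Thbs2, a matrix thrombospondin, by -4.01 ± 0.61, and Lum, a collagen-binding proteoglycan, by -3.97 ± 0.95. The change was smaller for Sparc (-1.16) and Col3a1 (-1.0), and Fn1 (-0.89) and Col6a2 (-0.92) were under the fold threshold. ES tumors were called below CDS tumors for 16 of the 22 genes and above them for 0.

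Genes of the contractile cytoskeleton and of YAP and TGF-beta response were also called mostly in the lower direction or not at all. Of 12 tested smooth muscle and actin genes 9 were called lower, 6 of the 9 on both scales, and 0 higher (1 without ES 51). Acta2, smooth muscle actin, was at 12.07, 12.42 and 13.16 (lowest, median, highest) in ES and 14.72 to 14.74 in eMC, a change of -2.23 ± 0.17. Myl9, a myosin light chain, fell by 3.48 and Vcl, the focal adhesion protein vinculin, by 2.30 on the log2 scale. Of 14 YAP and TGF-beta response genes 7 were called lower, 5 of the 7 on both scales, and 0 higher (1 without ES 51). The lower calls included the TGF-beta binding proteins Ltbp2 (-4.64) and Ltbp1 (-4.47). Ccn2 (-0.97) and Tgfbi (-0.59) were not called. Tgfb1 was below the dip on all 10 arrays, and so was Tgfb2, among the 5 called lower on both scales.

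Transcription factors of mesenchyme split. Of 20 tested, 12 were called lower, 8 of them on both scales, and 4 higher, with a median of -2.52 (-1.21 as deposited). Snai1, among those 8, and Foxc2, among the 12, were below the dip on all 10 arrays. Twist2, a basic helix-loop-helix factor of dermis and bone precursors, was at 11.08 to 11.39 in eMC and 2.08, 2.48 and 3.25 in ES, at least 70.2-fold lower (adjusted p = 6.42e-09). Twist1, Snai2 and the limb factors Prrx2 and Prrx1 were lower by 5.98, 5.80, 6.70 and 4.17 log2 units. Foxf1, a forkhead factor of visceral mesoderm and vessels, went the other way: it was at 12.45, 5.75, 11.69, 11.65, 12.21 and 9.58 in ES 41 to ES 51 and 3.50 to 4.04 in eMC (6.83 ± 1.13, adjusted p = 0.00048), with ES 46 the lowest tumor. The heart and body wall factor Tbx18 (2.25) and the homeobox gene Msx1 (1.28, not called as deposited) were also called higher. Twist1 was at 9.26 ± 0.80 in CDS tumors and Foxf1 at 10.57 ± 0.47 (SD, n = 6). The difference, ES minus CDS, was -5.94 for Twist1 and -0.01 for Foxf1. Both genes were named for their change on the same ES arrays, so these differences are a description, without a test.

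Markers of the labelled mesenchymal identity of the eMC did not all set them apart from ES tumors. Vim, the intermediate filament vimentin, was at 15.19 to 15.26 in eMC and 13.94 to 14.85 in ES, a difference of -0.86 that is under the fold threshold. Thy1, at 9.97 to 10.20 in eMC and 7.35 to 11.11 in ES, was not called, nor was Pdgfra, at 8.96 to 9.45 and 6.95 to 10.68. Of 10 tested mesenchymal markers 6 were called lower in ES, including S100a4, a calcium-binding protein (-4.53 ± 0.81), and Cd44, a hyaluronan receptor (-3.95). Col1a2, a collagen on the same list, was too dim to be tested, at 3.66 on average in eMC and 2.45 in ES.

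The eMC also carried transcripts of differentiated lineages, many of them lower in ES tumors. Of 7 tested fat cell genes 6 were called lower, all 6 on both scales. Ucp1, the uncoupling protein of brown fat, was at 11.30 to 11.49 in eMC and 2.40, 2.70 and 4.06 in ES, at least 81.9-fold lower. Pparg, the master regulator of fat cell formation, was at least 61.6-fold lower. Adipoq, a fat hormone, was at 13.52 to 13.58 in eMC but ranged over 9.08, 10.77, 2.44, 7.52, 7.42 and 11.45 in ES 41 to ES 51 (-5.45 ± 1.40, adjusted p = 0.0073). Of 13 tested cartilage genes 10 were called lower, 6 of them on both scales, with Col9a1 (-6.73 ± 0.58) and Col9a3 (-5.39 ± 0.62), minor cartilage collagens, next to Col2a1; 4 members were below the dip on all 10 arrays. CDS tumors held Col9a1 at 14.41 ± 0.21, and ES tumors were called lower than CDS for 8 of the 13. Among 4 tested bone genes only Dlx5, a homeobox gene of bone and forebrain, was called, higher by 6.34 ± 0.71 (ES 6.53 to 10.78, eMC 2.32 to 2.51), and 2 genes were called without ES 41 or without ES 49.

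Genes of interferon response were lower in ES tumors: 13 of 14 tested were called, with a median of -4.46 (-3.38 as deposited), 10 of the 13 on both scales, and 8 were called with each array set to the same median. Interferons switch these genes on through a short promoter element. Ifit1, which blocks translation of viral RNA, was at 2.84, 3.66, 7.54, 3.32, 3.60 and 3.28 in ES 41 to ES 51 and at 11.35, 11.12, 11.13 and 11.18 in eMC (-7.16 ± 0.79, adjusted p = 2.7e-05). ES 47 stood above the other tumors, and so it did for Gbp3, a guanylate-binding protein (8.18 against 3.35 to 5.72), Usp18, which removes ISG15 (9.29 against 3.54 to 5.11), and Ifit3 (7.41 against 3.99 to 5.00). Factors of the pathway were lower too: Irf7 by 4.74, Irf9 by 4.57 and Stat2 by 4.01 log2 units, while Rsad2, an antiviral enzyme, differed by -0.58 and was not called. The count without ES 47 was again 13, with a median of -4.81. CDS tumors lay between, at 7.81 ± 0.51 for Ifit1 (SD, n = 6), and ES tumors were called below them for 9 of the 14 genes.

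The promoters of 3 of these genes are shown because each carries 2 matches to the interferon element. They are RefSeq windows of 300 bases on GRCm38.p6, from 250 before to 50 after the start, and capitals mark matches, searched on both strands, to GAAA, any 2 bases and GAAA again (here on the other strand, as TTTC, any 2 bases and TTTC).
Ifit1: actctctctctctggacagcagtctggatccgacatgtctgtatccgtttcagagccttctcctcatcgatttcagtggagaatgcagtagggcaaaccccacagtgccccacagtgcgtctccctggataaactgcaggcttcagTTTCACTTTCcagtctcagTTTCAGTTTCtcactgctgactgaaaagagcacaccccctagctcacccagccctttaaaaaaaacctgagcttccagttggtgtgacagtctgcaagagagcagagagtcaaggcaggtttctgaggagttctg
Ifit3: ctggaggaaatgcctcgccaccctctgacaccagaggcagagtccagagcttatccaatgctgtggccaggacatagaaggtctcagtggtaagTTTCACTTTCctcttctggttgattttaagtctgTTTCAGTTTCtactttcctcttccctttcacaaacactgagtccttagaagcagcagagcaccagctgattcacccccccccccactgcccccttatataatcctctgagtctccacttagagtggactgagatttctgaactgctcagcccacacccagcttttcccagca
Gbp3: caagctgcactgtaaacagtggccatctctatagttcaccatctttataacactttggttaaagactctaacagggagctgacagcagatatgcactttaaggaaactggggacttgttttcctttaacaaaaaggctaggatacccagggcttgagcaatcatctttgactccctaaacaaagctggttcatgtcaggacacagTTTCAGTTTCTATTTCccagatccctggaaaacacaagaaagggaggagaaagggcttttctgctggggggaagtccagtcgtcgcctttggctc

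The Ifit1 window lies at chr19:34640639-34640938, the Ifit3 window at chr19:34583279-34583578 and the Gbp3 window at chr3:142559794-142560093, all on the + strand. Counted from the start, the matches lie at -104 and -85 in Ifit1, at -156 and -122 in Ifit3, and at -45 and -39 in Gbp3, where both overlap. Of the 10 interferon genes called lower that had a window, 5 held the motif. Of all 11 tested interferon genes with a window 6 held it, among them Rsad2, which was not called. The motif was in 3.49% of all 27025 RefSeq promoters, in 2.76% of those of tested genes, 4.38% of genes called lower and 2.12% of genes called higher. A match is a description of letters. A run of 2 GGAA copies (GGAAGGAA, both strands), the shortest form of the repeat known from EWS-FLI1 binding, were in 3.75% of all promoters, 3.47% of those called higher and 3.01% of those called lower, and in 0 of the 10 windows of the 12 genes highest in ES tumors; distant sites were not analysed here.

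Secreted inflammatory proteins were also mostly lower than in eMC, but the tumors ranked otherwise than for interferon genes. ES 47, the highest tumor for interferon genes (mean 7.59), was the lowest for this list (5.10). ES 46 was the highest for it (9.12). Of 21 tested acute-phase proteins and chemokines 14 were called lower, 12 of them on both scales, and 1 higher, with a median of -4.08 (-3.76 as deposited). Cxcl1, a neutrophil attractant, was at 12.10 to 12.29 in eMC and 3.30, 4.35 and 5.18 in ES, a change of -7.89 ± 0.38 (adjusted p = 5.33e-08). Ptx3, a pentraxin, was at 14.78 to 14.81 in eMC but at 2.86 (lowest) and 7.18 (median) in ES, with ES 46 at 10.76 and ES 49 above it (-7.38 ± 1.41). These were also the highest tumors for Cxcl5. Ccl8, a monocyte attractant, was the 1 gene called higher (4.57), and 2 were called higher without ES 41. Of 8 tested antigen presentation genes 4 were called higher and 3 lower. The class II genes H2-Aa (6.84 ± 0.59), H2-Eb1 (4.57 ± 0.59), H2-Ab1 (4.32 ± 0.62) and Cd74 (2.46) were higher. The immunoproteasome genes Psmb8 (-2.68 ± 0.30) and Psmb9 (-1.77) were lower, Psmb9 not on the deposited scale (0.78). Of the class I genes H2-K1 was lower (-1.14) and H2-D1 was not called (-0.09).

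Signalling pathways were mixed except for BMP. Of 12 tested BMP pathway genes 9 were called lower, 8 on both scales, and 0 higher. Bmp5, among the 8, was below the dip on all 10 arrays. Id4, a target that holds helix-loop-helix factors inactive, was at 11.26 to 11.46 in eMC and 1.93, 3.16 and 6.79 in ES (-7.61 ± 0.83), and Id1 and Id3 were lower by 4.39 and 3.59. The ligand Bmp4 was at 9.51 to 9.77 in eMC and 2.64, 2.90 and 4.95 in ES, at least 10.2-fold lower, and the extracellular regulators Bmper (-6.67) and Grem1 (-4.21, and -2.05 as deposited, where it was not called) were lower too. ES tumors were called below CDS tumors for 9 of these 12 genes, with a median difference of -4.36; CDS tumors held Id1 at 13.33 ± 0.42 and Bmp4 at 11.91 ± 0.37 (SD, n = 6).

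In the Wnt pathway 6 of 11 were called lower and 1 higher. The ligand Wnt5a fell by 5.82 and the antagonists Sfrp1 and Sfrp2 by 5.35 and 4.38, while the ligand Wnt11 was at 7.24 to 11.68 in ES and 4.01 to 4.82 in eMC (5.43 ± 0.76), at least 10.6-fold higher, and was at 3.23 ± 0.32 in CDS tumors (SD, n = 6). Axin2, a common readout of beta-catenin activity, was below the dip on all 10 arrays, so no change in it could be measured. In the IGF pathway Igf2, the fetal growth factor, was at 14.15 to 14.24 in eMC and at 3.54, 8.81, 8.00, 8.76, 5.80 and 2.74 in ES 41 to ES 51 (-7.92 ± 1.17, adjusted p = 0.00022), and Igfbp2, a binding protein, was at 12.49 to 13.39 in ES and 7.30 to 7.95 in eMC (5.40 ± 0.22). Both groups stood apart in each gene. Of the 13 tested IGF genes 4 were called lower and 1 higher, and the receptor Igf1r was called lower (-2.17) but was at 0.34 as deposited; the list's median was -1.0, and 0.16 with each array set to the same median.

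Of 8 Hedgehog genes 2 were called higher, the target and receptor Ptch1 (2.83 ± 0.36) and Gli1 (1.90), and 4 lower. The coreceptor Cdon (-4.45) was the lower call that held on both scales; Gli2 and Gli3, the transcription factors, were at -0.65 and -0.33 as deposited, and Gli2 lost its call without eMC empty 4 or without eMC empty 6 (adjusted p = 0.052 and 0.051). Of 17 MAPK feedback and immediate-early genes 4 were higher and 6 lower, and the median turned from -0.14 to 1.90 as deposited. Dusp6, a phosphatase that ERK induces, was at 12.81, 13.17 and 13.60 in ES and 9.53 to 9.82 in eMC (3.52 ± 0.16, adjusted p = 3.96e-08), and Dusp4 rose by 2.56 ± 0.40. Phlda1 (-3.40) and Fosl1 (-3.01), also ERK-responsive, were lower, Fosl1 with every array of both groups below the dip. ES tumors lay below CDS tumors for Dusp6 (-1.16), Dusp4 (-2.67), Fosl1 (-4.27) and 9 further genes of the 17.

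Growth factors and their receptors formed a mixed set: 7 of 22 were called higher and 13 lower, 5 and 8 of them on both scales. Fgf7, a growth factor that mesenchyme makes for epithelium, was at 9.97 to 10.51 in eMC and 2.95, 3.11 and 3.49 in ES, at least 26-fold lower. Met and Ngfr, receptors for HGF and for neurotrophins, were lower by 4.91 and 4.96, and Egfr, the EGF receptor, by 3.90 log2 units (not called as deposited, adjusted p = 0.054). The higher genes included neurotrophin parts, Bdnf (4.56) and the receptors Ntrk3 (4.01, not called as deposited) and Ntrk2 (1.62, 4.24 as deposited), beside Kit.

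Neural genes outside the 12 highest were also divided. Of 11 tested, 4 were called higher and 5 lower, and another 13 measured members were too dim to be tested. Sox11, a factor of early neurons, rose by 3.27, Scg5, a secretory granule chaperone, by 3.29 and Tubb3, neuronal tubulin, by 2.86, while Stmn2, a growth cone protein, fell by 5.38, Gap43 by 5.45 and Ncam1, the adhesion molecule, by 4.03 (-2.73 as deposited, adjusted p = 0.12). Syt1, a synaptic vesicle protein, was at 10.18, 3.13, 8.32, 9.12, 8.06 and 3.01 in ES 41 to ES 51 and 2.92 to 3.62 in eMC; its adjusted p of 0.040 rose to between 0.068 and 0.090 when any array other than ES 46 or ES 51 was left out. The list had 2 genes higher without ES 47 or without ES 49, and its median of 0.92 turned to between -0.17 and -0.13 without ES 46, ES 47, ES 49 or ES 51. Among 14 tested Hox genes, 5 were called lower and 1 higher, Hoxa7 (1.79). Of the lower calls 4 held on both scales, but those 4 genes were below the dip on all 10 arrays. The median turned from -0.93 to 0.69 as deposited, where 4 were called higher. The higher count was 0 without ES 47, without ES 51 or without any 1 of the eMC arrays, and 2 without ES 49.

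Few cell division genes were called between tumors and cultured cells. Of 28 tested, 4 were called higher and 0 lower, with a median of 0.20 (0.72 as deposited, where 11 were called higher, against 0.83 for all genes). Ccne2 and Ccne1, cyclins of S-phase entry, rose by 1.84 ± 0.28 and 1.31 ± 0.33 and Mcm2, of the replicative helicase, by 1.19 ± 0.18; without ES 46 the count was 7. Mki67 was at 12.16, 12.69 and 13.09 in ES and 11.53 to 11.83 in eMC, a difference of 1.03 ± 0.16 that dropped under the threshold without ES 41 (0.95), without ES 47 (0.99), without eMC empty 6 (0.99) and as deposited (0.77).

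Of 13 tested genes of a list of the Myc family, D cyclins, cell cycle inhibitors and Mdm2, 4 were called higher and 7 lower, 3 and 3 of them on both scales. Both lower counts take in Mycn by its brightest probe set, although its probe sets disagree, as given below. Ccnd2, a D cyclin, was at 13.21 to 13.24 in eMC and 7.33, 8.34 and 9.73 in ES (-4.71 ± 0.45), and Ccnd1 was at 12.84 to 12.98 and 12.95 to 14.05, a difference of 0.57 that turned to -0.071 as deposited. Cdkn1c, the inhibitor p57, fell by 6.96 ± 0.58 and was at 14.53 ± 0.24 in CDS tumors (SD, n = 6). Cdkn2a, the locus of p16 and p19ARF, was at 2.78, 9.53, 11.63, 7.19, 11.82 and 6.71 in ES 41 to ES 51 and 2.96 to 3.47 in eMC (4.99 ± 1.51, adjusted p = 0.017). ES 41 thus lay at the eMC level. The inhibitors Cdkn1a (-1.84) and Cdkn2b (-2.86) were not called as deposited (-0.90 and -0.76), and Cdkn1a was not called without eMC empty 4 (adjusted p = 0.057). Myc rose by 1.59. Mycn gave opposite answers: on the brightest of its 3 probe sets ES was at 12.49 ± 0.42 and eMC at 13.71 ± 0.09 (-1.22 ± 0.20), and on the other pair ES was at 13.04 ± 0.43 and 7.62 ± 0.78 against 2.42 ± 0.30 and 2.90 ± 0.27 (SD, n = 6 and 4), so no direction is given for the gene.

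Of 21 hypoxia and glycolysis genes 6 were called higher and 3 lower (5 lower as deposited and without ES 46). Pfkp, the platelet-type phosphofructokinase, was at 13.33, 13.80 and 14.30 in ES and 9.74 to 9.89 in eMC (4.02 ± 0.16, adjusted p = 1.67e-08), and CDS tumors held it at 8.48 ± 0.30 (SD, n = 6), lower than ES by 5.35. Pdk1, which limits pyruvate entry into mitochondria, rose by 3.57 ± 0.31 and Ankrd37, a hypoxia target, by 5.09 ± 0.64, while Adm, the vasodilator adrenomedullin, fell by 5.73 ± 0.76. Pgk1 (-0.18) and Ldha (-0.18), both bright, were not called but were called lower as deposited (-1.03 and -1.11), and Car9 was below the dip on all 10 arrays. Of 17 genes of the amino acid stress response run by ATF4, 5 were called lower (9 as deposited) and 0 higher, among them Trib3 (-4.68), Slc7a11, a cystine transporter (-4.41, below the dip on all 10 arrays), and Ddit3 (-4.34); Asns (-0.08) and Atf4 (-0.61) were not called.

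Markers of several host cell types were higher in tumors than in culture. Of 15 tested macrophage genes 10 were called higher, all 10 on both scales, and 0 lower. C1qa, a complement subunit of macrophages, was at 11.73, 12.74 and 13.24 in ES and 6.75 to 7.86 in eMC, at least 52.2-fold higher on the deposited signals (5.35 log2 units after normalization), with C1qb and C1qc close behind (5.54 and 5.24). The eMC were not free of such cells' genes: Lyz2, lysozyme, was at 13.94 to 14.04 in eMC and 13.74 to 15.16 in ES, and Ctss, a cathepsin, at 12.86 to 12.96 and 12.87 to 14.02, and neither was called. The summed linear level of the list was 31897 to 98668 in ES and 28500 to 29734 in eMC. ES tumors and CDS tumors were called apart for 1 of the 15 genes. Of the lymphocyte genes Ptprc, carried by all white blood cells, was called (4.14 ± 0.51), while Cd3e, Cd4 and Cd79a were below the dip on all 10 arrays.

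Of 13 tested endothelial genes 9 were called higher, 8 on both scales, and 1 lower. Plvap, of vessel fenestrae, was at 7.89, 8.98 and 9.86 in ES and 3.04 to 3.38 in eMC, at least 7.19-fold higher; Cdh5, the endothelial cadherin, rose by 4.74 ± 0.59 and Emcn by 4.28 ± 0.99, with ES 41 at 3.40 against 7.54 to 9.31 in the other tumors. The summed level of the list was 5639 to 23761 in ES and 16800 to 20628 in eMC, where Ramp2, a receptor partner called lower (-1.35), was bright. ES tumors were called below CDS tumors for 9 of the 13. Of 7 pericyte genes 4 were called higher and Pdgfrb lower (-3.43, and -1.87 as deposited, adjusted p = 0.27). Hba-a1, a hemoglobin chain, was at 12.79 to 14.74 in ES and 5.64 to 7.55 in eMC, at least 101-fold higher. Of 6 neutrophil genes S100a8 (4.99 ± 1.26) and S100a9 (3.48 ± 1.30) were called higher, with ES 46 at 12.61 and 12.03, and Camp, cathelicidin, and Elane, neutrophil elastase, lower but not as deposited and below the dip on all 10 arrays; S100a9 lost its call without ES 49 (adjusted p = 0.080), without ES 51 (0.064) and without any 1 of the eMC arrays (0.075 to 0.096). The part of host cells in the differences was not tested.

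Skeletal muscle and skin genes depended on the tumor. The mean of 16 muscle genes was 8.21, 13.03, 9.63, 13.67, 11.65 and 2.62 in ES 41 to ES 51 and 5.85 to 5.91 in eMC. Ckm, the muscle creatine kinase, was at 11.16 to 15.13 in the 5 tumors other than ES 51, where it was at 2.71, below the eMC (4.33 to 4.74). Of the 16 genes 7 were called higher and 1 lower, Myog, the myogenic factor (-4.89); without ES 51 the higher count was 13. The summed level ran from 103 to 405809 in ES and from 13416 to 14271 in eMC. The mean of 8 keratinocyte genes was 10.75 in ES 48 and 3.35 to 4.91 in the other tumors, against 6.11 to 6.30 in eMC. Krt14, of the basal epidermis, was at 10.88 in ES 48, 2.02 to 2.46 in the other tumors and 10.01 to 10.67 in eMC (-6.72 ± 1.56, adjusted p = 0.0040). Of these 8 genes 2 were called lower and 2 higher, and without ES 48 they were 5 and 1; the higher count was also 1 without ES 41, ES 47, ES 49 or any 1 of the eMC arrays. Summed, keratinocyte genes were at 237 to 23332 in ES and 1736 to 2483 in eMC. The part of muscle and skin in the arrays' other values was not tested.

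**Figure D4:**
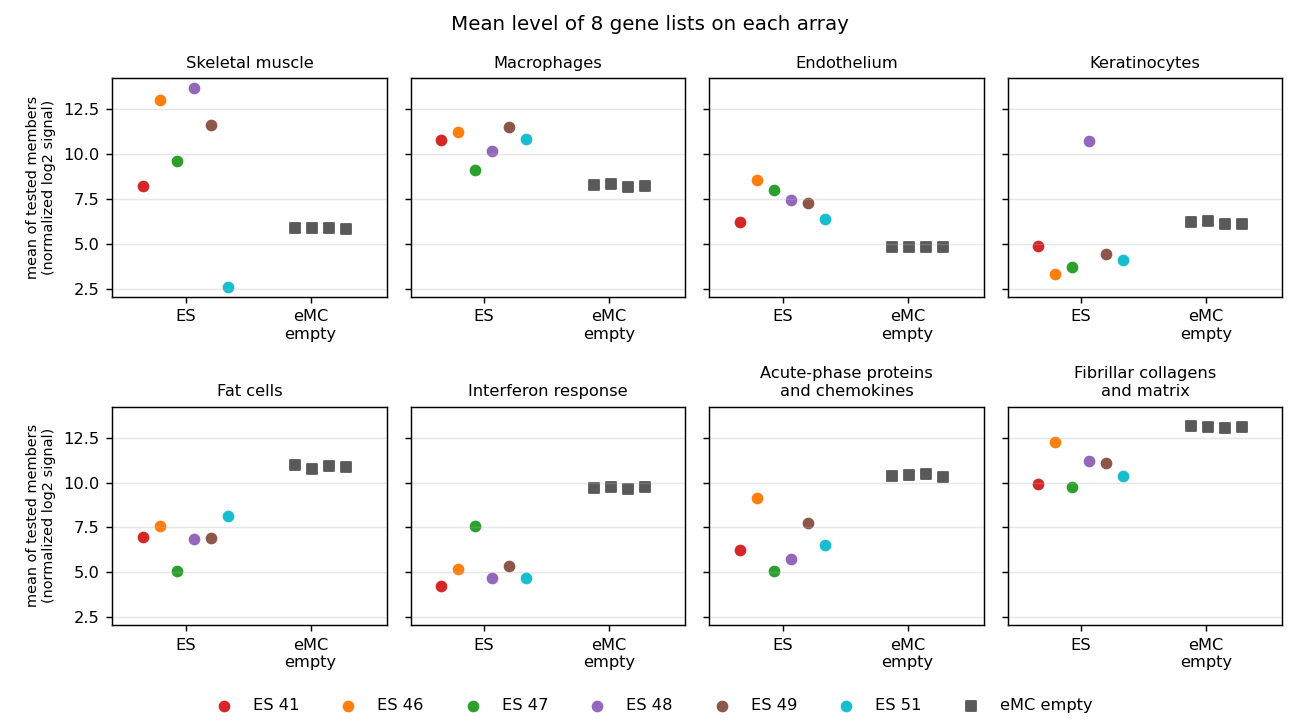
Mean normalized log2 signal of the tested members of 8 gene lists on each array; coloured circles are the 6 ES tumors, by number, and grey squares the 4 eMC empty samples. Skeletal muscle runs from 2.62 (ES 51) to 13.67 (ES 48), keratinocyte genes are high in ES 48 (10.75), interferon genes are highest among tumors in ES 47 (7.59), and the eMC samples lie close together in every panel.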

How the data were processed

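Total RNA labelled with biotin was hybridised to Affymetrix mouse arrays, 1 per sample. The authors deposited log2 signals. MAS5 is the tool in the submitters' processing notes, without version or settings. Of 45141 probe sets, 104 controls were left out and 28898 had 1 gene symbol in the platform's gene table; 551 had several and 15588 none, and these were not used. Linear signals entered as log2(signal + 1.42305), and the log2 values of all 20 arrays were quantile-normalized. Probe sets above their array's median on at least 4 of the 10 arrays were kept (18080), and each gene was tested with its brightest probe set (11564 genes).

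The 2 groups were compared in R 4.3.3 by limma 3.58.1, using lmFit and a trended eBayes, and p-values were adjusted over all genes by Benjamini and Hochberg; ES and CDS tumors were fitted likewise. Tests are two-sided. On simulated data with 200 changed genes out of 11564, for ES tumors against eMC empty, the fit recovered 71% of changes of size 2 (log2) and 94% of size 4, and called 5 unchanged genes. Single measures of the arrays were compared by exact permutation tests. The number of arrays, 10, limits the precision. The recovery rates and the 5 calls of unchanged genes hold for 200 changed genes. Recovery with as many changed genes as the 4436 called here was not tested.

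A floor at the dip of the normalized values had been laid out; it fell at 6.73, within the dim signals of eMC arrays, so fold bounds use each array's own dip of the deposited log2 values (density bandwidth 0.35), chosen after seeing the data. Of the genes called lower, 437 were below the dips on all 10 arrays, of those called higher 41. Every eMC array lay below its dip for 1266 genes called higher and 614 called lower. Every ES array did for 580 called lower. Changes of such genes are not measured fold sizes. Etv1, Etv6, Kit, Bcl11b, Gli1, Foxf1 and Cdkn2a were dim on every eMC array. Dkk2, Pappa2, Sox10, Ret, Hhip and Junb, called lower in their lists, were dim on all 10 arrays. On the 2 scales 7 genes were called in opposite directions. For 62 of the 1689 called genes that more than 1 probe set measured, another one was called in the opposite direction.

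Genes named are the 12 highest and 12 lowest changes among called genes without overlap (leaving out names of predicted genes and clones), 12 genes of interest, and up to 4 called members of each of 35 gene lists (593 entries, 530 measured, 448 tested), beside further list members given with their values. Members, lists and genes were chosen with earlier results of these data known. Alternatives were the scaling, offset, filter, probe set rule, variance model, thresholds and leaving out each array. No pair of arrays held identical values (0 pairs). Promoter windows are those of RefSeq, the first per gene.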

Additional observations from a re-analysis of the deposited data

Results flagged for a closer look

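In each named gene tested, and in several array measures, the 6 ES tumors and the 4 eMC samples were searched for outlying arrays. An array counted if it lay far from the others of its group (Dixon's test at 95%), which chance flags in about 1 in 20 groups. Of 304 groups examined, array measures included, 30 were so, all in genes, 22 among ES tumors and 8 among eMC samples. In ES 47 these were the interferon genes Ifit1 (7.54), Ifit3 (7.41) and Usp18 (9.29), on the high side, and the macrophage gene Aif1 (7.06) and the matrix gene Lum (4.58), on the low side. ES 46 was apart for Il6 (9.27), Ccn1 (11.43), Ncam1 (8.98) and Twist1 (4.58), all high, and for Krt20 (10.18), low. ES 48 was high for the skin keratins Krt14 (10.88) and Krt5 (9.05) and for Bmp4 (4.95). ES 51 was low for the muscle genes Myh4 (2.21) and Ckm (2.71) and high for Col9a1 (5.53).

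ES 41 was low for Emcn (3.40), Prkcb (2.24) and Pou3f1 (12.86) and high for Cck (2.93) and Ucp1 (4.06), and ES 49 was high for Gap43 (6.38). Among eMC samples, eMC empty 5 was apart for Ptch1 (7.50), Cdkn2b (9.13), Foxd4 (2.36) and Ucp1 (11.49), eMC empty 7 for Agtr2 (13.15) and Myl9 (12.03), eMC empty 4 for Myh1 (2.51) and eMC empty 6 for Adipoq (13.52).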

How the results depend on the processing

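No paired analysis was possible because the ES tumors and the eMC samples share no replicate number. The counts depended on the scaling: as deposited 3734 genes were called higher and 1324 lower, and with each array set to the same median 4019 and 851 (82.5% of calls higher). At a log2 change of at least 2 there were 2149 calls, 997 higher and 1152 lower; over all probe sets rather than genes 7336, 3319 higher and 4017 lower; on both scales 2817, of them 1005 lower (the last chosen after seeing the data). Leaving out each array gave 4030 to 4579 calls, 1905 to 2186 higher and 2116 to 2403 lower, and for ES against CDS tumors, whose alternatives were chosen after seeing the data, 3624 to 4052; as deposited that comparison had 2239. Of 147 named genes tested, 120 kept direction and call under each of the 21 alternatives in which they were tested (137 were tested under the stricter filter). Direction turned for Ccnd1 as deposited (-0.071), Mycn with the mean of its probe sets (4.71), and Cic as deposited (1.91) and at the same median (2.21). The cause was not tested. Dim genes are limited by signal over background, with 34.1% ± 4.72 of probe sets above the dip in ES and 17.9% ± 6.90 in eMC (SD, n = 6 and 4).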

Other observations

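Imprinted genes, expressed from 1 parental copy and many of them brakes or drivers of fetal growth, were looked at after their values were seen, so they are described without a test of the group. Of 18 listed, 12 were tested in the fit over all genes. Of the 12, 9 were called lower in ES tumors than in eMC on both scales and 0 higher, beside 8.69% of all genes called lower on both scales. The same 9 were called lower than in CDS tumors, beside 16.1% of all genes. The list was taken from these same values, so neither count is evidence about imprinted genes as a group. Peg3, a zinc-finger gene, was at 12.28 to 12.42 in eMC, 3.81 (lowest), 4.10 (median) and 6.32 (highest) in ES, and 12.85 ± 0.32 in CDS tumors (SD, n = 6). Plagl1, a zinc-finger growth regulator, was at 14.06 to 14.24 in eMC, 5.05, 7.01 and 9.07 in ES and 11.94 ± 0.32 in CDS tumors. Meg3, a long noncoding RNA of the Dlk1 locus, was at 10.38 to 10.91 in eMC and 5.29 to 10.45 in ES, so its groups overlapped (-3.12 ± 0.79, SE). Those values are of its brightest probe set, and of its 8 probe sets tested 2 were called lower and 0 higher. Ndn (-6.30), Sgce (-3.80) and Impact (-2.77) fell too, beside Dlk1, Igf2 and Cdkn1c; Ndn was not called against CDS tumors on the deposited scale (-1.37). Grb10 (-1.47), Slc38a4 (-0.74) and Snrpn (-0.83) were not called on their brightest probe sets. Among all probe sets tested, 1 of 3 for Grb10 and 1 of 2 for Slc38a4 was called lower.

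Sex-linked genes differed between tumors. The Y-linked gene Eif2s3y was at 1.57 in ES 41 and 1.59 in ES 51, and at 10.39 to 11.54 in ES 46, 47, 48 and 49, against 7.66 to 8.09 in eMC. Xist, the RNA that silences an X chromosome, was at 14.36 and 14.26 in ES 41 and ES 51, 11.38 to 13.01 in the other 4 tumors and 9.63 to 10.05 in eMC. All 4 tumors with Eif2s3y signal thus also had Xist signal.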
